A study of Mus musculus with 219 samples.

Results

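The genes described here are 10 chaperones, cochaperones and helpers of the heat shock response: Hspa1a, Hspa1b, Hspa8, Hsph1, Dnajb1, Hsp90aa1, Hspd1, Hspe1, Chordc1 and Zfand2a. They were chosen by name as known targets of heat shock factor 1 (HSF1), matched to their Ensembl identifiers with GENCODE mouse release 21, and make up 10 of the 55487 gene identifiers counted in mouse left prefrontal cortex. All 10 had enough reads to be tested in both of the deposited tables.

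HSF1 is a transcription factor that is held inactive by chaperones in unstressed cells. When unfolded protein draws those chaperones away, HSF1 assembles on heat shock elements, runs of the letters GAA read alternately on either strand, and raises transcription of chaperone genes, which refold or sequester the damaged protein and return HSF1 to its inactive state. In brain Hspa8 and Hsp90aa1 are abundant without any stress, while the inducible Hspa1a and Hspa1b are kept low and are known to follow body temperature over the day in liver.

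The study took RNA from wild-type mice kept in home cages with 12 h of light and 12 h of dark, at about 12 weeks of age and at 8 times of day, named by zeitgeber time (ZT, hours after lights on). This daily atlas has 92 libraries: each time has 6 females and 6 males, but ZT18 and ZT21 have 5 of each. A further 126 libraries came from mice collected at ZT6 after being moved at about 8 weeks of age to light-controlled incubators, acclimated for 7 days and then kept at 22 °C for 22 days under light and dark spans of equal length, either 12 h each (12:12) or 11 h each (11:11). In the running wheel set, mice had wheels in their cages for the last 7 of those days and were collected under the light cycle. In the calorimetry set, mice went on to indirect calorimetry chambers, which measure gas exchange, and were collected in constant darkness. Without lights on, ZT6 is only a nominal time in that set. Whether its 11:11 and 12:12 mice were at the same phase of their daily rhythms was not tested. Each set held both sexes and 4 genotypes. WT/WT mice were Snord116+/+Ctg-/-. HET/WT mice were heterozygous for Snord116 alone (Snord116+/-Ctg-/-), WT/TG mice for Ctg alone (Snord116+/+Ctg+/-), and HET/TG mice for both (Snord116+/-Ctg+/-). What Ctg expresses, where it does so and from which parent the Snord116 allele came is not given in the sources used here. Every such group held 4 animals per sex and light cycle, but WT/TG calorimetry males on 11:11 numbered 3. WT/TG running wheel males on 12:12 also numbered 3, because 1 further sample was matched by no column and was not analysed here. The replicates are labelled as biological.

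The letters of the heat shock element were looked for near the starts of these genes. RefSeq windows from 250 bases before to 50 bases after a start (GRCm38.p6) were at hand for 8 of the 10 genes, with 11 windows, and were searched on both strands for 2 neighbouring units, GAANNTTC or TTCNNGAA, and for 3, GAANNTTCNNGAA or TTCNNGAANNTTC, of which every 3-unit match also holds a 2-unit match. Hspa8 and Hsp90aa1 were the other 2. The 2-unit letters stood in 8 of the 11 windows, against 15.1% of all 32851 windows, and in 7 of the 8 genes, against 17% of all genes. The 3-unit letters stood in 5 of the 11 windows, against 0.603% of all windows, and in 4 of the 8 genes (Hsph1, Hspd1, Hspe1 and Chordc1), against 0.662%. The genes were chosen as known HSF1 targets, so a high share follows from the choice. The windows are not independent, since those of Hsph1 overlap and some genes share a match or near-identical sequence. Dnajb1 held neither in its window. The matches are printed to show how the units are spaced, with the matched letters in capitals:
Hspe1, chr1:55088053-55088082, plus strand: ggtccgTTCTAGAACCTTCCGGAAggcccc
Chordc1, chr9:18292260-18292288, plus strand: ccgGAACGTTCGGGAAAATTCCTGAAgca
Hsph1, chr5:149636280-149636308, minus strand: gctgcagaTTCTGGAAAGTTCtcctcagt
Hspa1a, chr17:34972227-34972286, minus strand: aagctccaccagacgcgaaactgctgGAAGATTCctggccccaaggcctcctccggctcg
Hspa1b, chr17:34959309-34959368, minus strand: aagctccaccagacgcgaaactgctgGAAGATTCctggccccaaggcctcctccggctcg
Zfand2a, chr5:139484654-139484713, minus strand: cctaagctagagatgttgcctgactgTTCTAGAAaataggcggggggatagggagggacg

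Hspd1 and Hspe1 lie head to head, and the same bases, read on the other strand, were the match in the Hspd1 window. GENCODE places those bases inside an exon of Hspd1 and before the start of Hspe1, and it places the printed Hsph1 and Chordc1 matches inside exons of those genes. The Hspa1a and Hspa1b matches are letter for letter the same, as are 296 of the 300 bases of their windows (98.7%), and, like the match of Zfand2a, lie outside any exon. A match is a description of letters, and no binding was measured.

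Those near-identical copies bear on the counts. Of the 150-base stretches of the longest Hspa1a transcript, 38.1% occur whole in Hspa1b, and of those of the longest Hspa1b transcript 40.5% occur whole in Hspa1a, so reads could be split between these genes. Hspd1 and Hspe1 overlap each other on opposite strands and have 5 and 6 named pseudogenes, Hspa8 holds the small nucleolar RNAs Snord14c, Snord14d and Snord14e in its span, and Hspa1a and Chordc1 overlap unnamed genes on the other strand. Because the strand setting of the counting is not given in the sources used here, reads of the genes overlapping on opposite strands cannot be told apart. The small nucleolar RNAs lie on the same strand as Hspa8, so strand would not part their reads. Nor does strand bear on reads shared with pseudogenes.

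Libraries held 13 to 18.4 M counted reads (M, mega) in the atlas and 12.7 to 29.9 M at ZT6. Markers of excitatory cortical neurons were all detected, with summed levels of 4130 to 8080 CPM (the usual depth-scaled count, with TMM library sizes), and those of striatal neurons (113 to 1510) and of choroid plexus (2.23 to 2660) varied most between libraries. Ribosomal RNA made up 4.86% to 33.5% of the counts except in 1 library, a running wheel female on 11:11 with WT/TG (58.2%). Among running wheel females on 11:11, the levels of replicate 3 labelled HET/WT did not match that label in Snhg14 (167.3 CPM against 20.8 to 54.3 in the other HET/WT libraries) and Ndn (82.6 against 102.3 to 175.7). Both lay within the range of the WT/WT libraries (115.9 to 280.6 and 46.7 to 84.5). The library was kept under its label. At ZT6 the slope of log2 level on gene length, in SD units over the libraries, differed between groups: it averaged -1.54 in calorimetry males, 0.267 in calorimetry females, 0.192 in running wheel males and 1.04 in running wheel females. Set and sex also go with separate series of library names, so preparation and these groups cannot be told apart.

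Per kilobase of exon, the constitutive chaperones stood far above the inducible Hsp70 genes in the atlas. Hspa8, the constitutive cytosolic Hsp70, was highest at 244 ± 21.1 CPM per kb (SD, n = 92 libraries). Hsp90aa1, a cytosolic Hsp90, followed at 194 ± 11.8. The mitochondrial chaperonin Hspd1 stood at 45.99 ± 2.46 and Hsph1, an Hsp110 nucleotide exchange factor for Hsp70, at 37.2 ± 3.70. Hspe1, the cochaperonin that caps Hspd1, was lower at 16.9 ± 1.57 CPM per kb. Dnajb1, an Hsp40 that hands substrates to Hsp70 (13.6 ± 1.87), and Zfand2a, an arsenite-inducible partner of the proteasome (13.3 ± 0.917), did not differ beyond their spread. Chordc1, a cochaperone of Hsp90, stood at 8.59 ± 1.21, and the inducible Hsp70 genes Hspa1b (2.33 ± 0.940) and Hspa1a (2.15 ± 0.540) were lowest and likewise within their spread of each other.

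Across the day, all 10 genes passed the test of a 24 h rhythm in wild-type cortex, against 41.4% of the 17193 genes tested. This was an edgeR quasi-likelihood test, Benjamini-Hochberg adjusted over all genes tested. Hsp90aa1 passed narrowly (adjusted p = 0.0499), and its call and that of Zfand2a were lost in some of the other settings given below. All 10 genes had their fitted peak in the dark, 9 of them between ZT18.5 and ZT22.9 and Zfand2a at ZT13.5. Their median peak-to-trough fold was 1.21, against 1.14 for the 7117 genes that passed and 1.10 for all genes tested, and 21.1% of the genes that passed had peaks in the same window of ZT18.5 to ZT22.9. That window was drawn from the 9 peaks themselves, so the share is a description and tests no clustering. In tissue RNA, a lower level per cell and fewer cells of a type cannot be told apart.

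**Figure D1:**
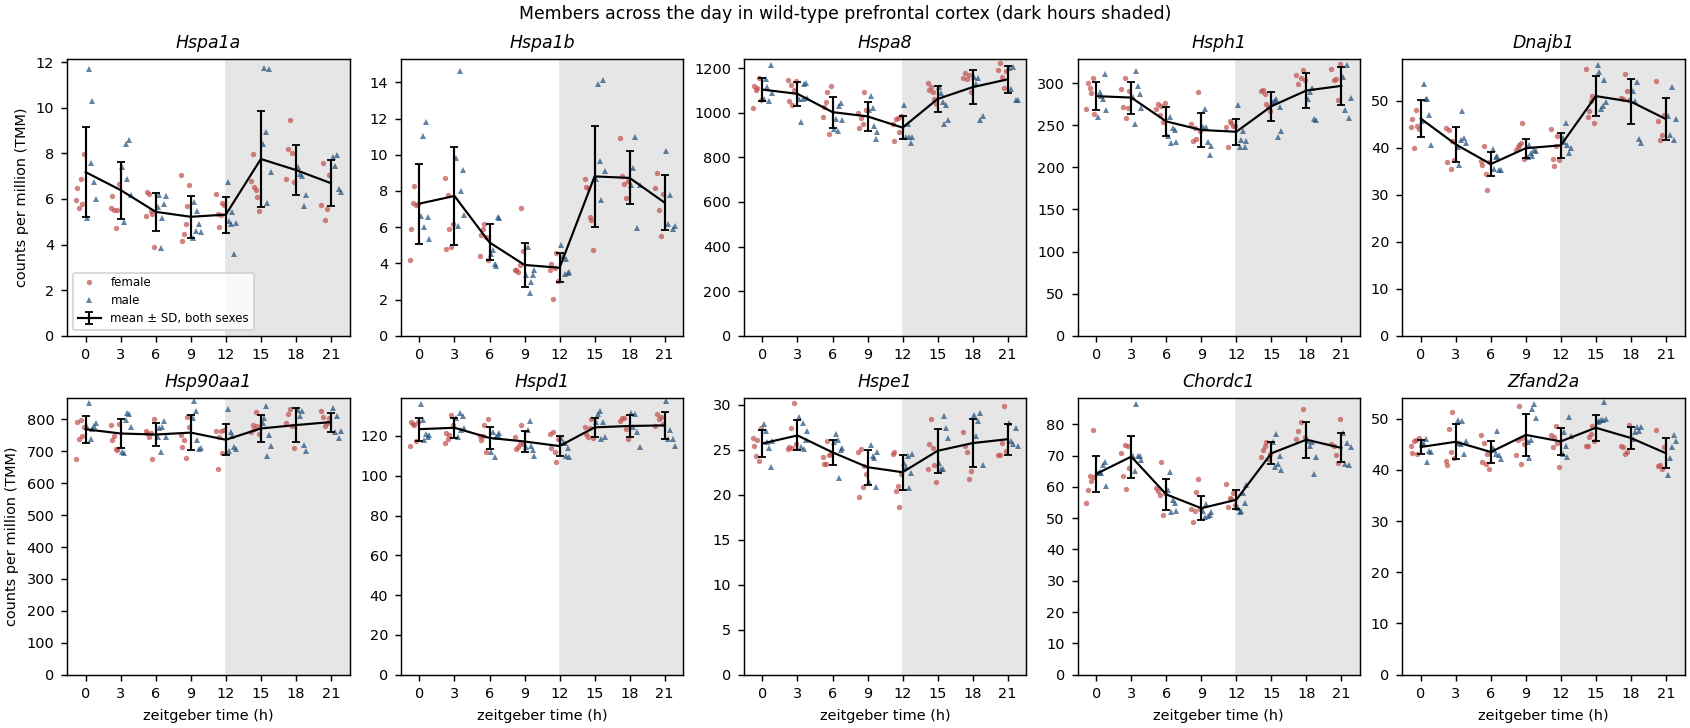
Level of each gene in CPM (vertical axis from 0, TMM scaled) in each of the 92 atlas libraries against zeitgeber time in hours; circles are females, triangles males, and the line joins the means of each time ± SD, with dark hours shaded. Hspa1b has the deepest trough, at a mean of 3.75 at ZT12 against 8.80 at ZT15, while Hsp90aa1 and Zfand2a are nearly flat.

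The inducible Hsp70 genes had the widest swing. Hspa1b stood at 2.00, 3.68 and 5.02 CPM (lowest, median and highest of 12 libraries) at ZT12 and at 4.74, 8.42 and 14.1 at ZT15. Nearly every ZT15 library was therefore above all those of ZT12, and the ranges met only at their edges. Its fitted fold from trough to peak was 2.04 (95% interval 1.69 to 2.47), with the peak at ZT20.7 (19.7 to 21.7) and an adjusted p of 2.94e-08. Hspa1a stood at 3.59, 5.31 and 6.73 CPM at ZT12 and at 5.49, 6.99 and 11.7 at ZT15, with more overlap, and its fold was 1.43 (1.27 to 1.61) with a peak at ZT19.9. These levels rest on few reads: Hspa1b had 29 to 245 counts in a library and Hspa1a 58 to 207.

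Among the cochaperones that feed and recharge Hsp70, Dnajb1 peaked earliest, at ZT18.5 (17.9 to 19.2), with a fold of 1.34 (1.27 to 1.41). Its libraries stood at 30.9, 36.7 and 40.4 CPM at ZT6 and at 45.2, 49.9 and 57.6 at ZT15, and these ranges did not overlap. Hsph1 peaked at ZT21.5 with a fold of 1.23 (1.18 to 1.27) and Hspa8 itself at ZT21.7 with a fold of 1.19 (1.15 to 1.24). Hspa8 stood at 866, 932 and 1037 CPM at ZT12 and at 1056, 1173 and 1223 at ZT21, again without overlap. The intervals of the peak of Dnajb1 and of those of Hsph1 (20.8 to 22.3) and Hspa8 (21.0 to 22.5) did not meet, which is a description, since the difference in phase was not tested.

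The Hsp90 arm was divided. Chordc1 stood at 48.8, 52.2 and 62.5 CPM at ZT9 and at 64.0, 75.0 and 84.7 at ZT18, so that the lowest library at ZT18 lay above the highest at ZT9. Its fold was 1.35 (1.28 to 1.43) with a peak at ZT20.4. Hsp90aa1 moved least of the 10, with a fold of 1.05 (1.02 to 1.09) and an adjusted p of 0.0499. It missed the threshold in a test of any difference among the 8 times (adjusted p = 0.23), which the other 9 passed, against 33.9% of all genes tested. Its rhythm also missed the threshold without a filter on low counts (adjusted p = 0.0754) and when any of 5 of the 6 replicate numbers was left out (adjusted p between 0.0617 and 0.186).

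The mitochondrial pair followed the same hours with small folds. Hspd1 peaked at ZT21.4 with a fold of 1.08 (1.05 to 1.11). Hspe1 peaked at ZT22.9 with a fold of 1.15 (1.1 to 1.2), and stood at 18.6, 22.8 and 24.8 CPM at ZT12 and at 25.1, 25.9 and 30.2 at ZT3, its highest time by mean, without overlap. Zfand2a was the exception in phase, with a peak at ZT13.5 (11.3 to 15.8) and a fold of 1.07 (1.03 to 1.10, adjusted p = 0.0113). Its rhythm did not pass without replicate 2 or without replicate 5 (adjusted p = 0.057 and 0.0779).

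Most of the steps that passed between neighbouring times came just after lights off. These comparisons were chosen after the levels had been seen. From ZT12 to ZT15, 8 of the 10 genes rose, against 7.64% of all genes tested (4.81% higher and 2.83% lower). The log2 steps were 1.22 ± 0.15 (SE) for Hspa1b, 0.55 ± 0.11 for Hspa1a, 0.34 ± 0.04 for Chordc1, 0.33 ± 0.05 for Dnajb1, 0.19 ± 0.03 for Hspa8, 0.17 ± 0.04 for Hsph1, 0.14 ± 0.05 for Hspe1 and 0.11 ± 0.03 for Hspd1. Hsp90aa1 (0.07, adjusted p = 0.253) and Zfand2a (0.08, adjusted p = 0.147) did not pass. From ZT3 to ZT6, 5 of the 10 fell, against 3.75% of all genes (2.35% lower): Hspa1b by 0.58, Chordc1 by 0.28, Dnajb1 by 0.16, Hsph1 by 0.15 and Hspa8 by 0.11 on the log2 scale. Of the other 6 steps, 1 gene fell from ZT0 to ZT3 (Dnajb1, -0.18, against 2.43% of all genes) and 1 from ZT21 to ZT0 (Chordc1, -0.17, against 1.2%), and none of the 10 passed in the remaining 4 by edgeR (between 0.0116% and 0.204% of all genes did), where 1 to 5 of the 10 had an unadjusted p under 0.05. The shares of all genes at that unadjusted level are not given here. DESeq2 was not run on the steps, and without replicate 3 the steps that passed numbered 9 in all instead of 15.

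For 2 of them a single 24 h wave left a further component. A second term with a 12 h period, also added after the levels had been seen, passed for Hspa1b (adjusted p = 3.74e-05) and Chordc1 (3.12e-06), against 1.91% of all genes. In both, levels at ZT3 were still close to those of the dark hours: Chordc1 averaged 69.6 ± 6.68 CPM (SD, n = 12) at ZT3, 57.6 ± 5.00 at ZT6 and 70.7 ± 3.52 at ZT15. Ordered by mean, the times next to each other in rank mostly lay within 1 SD of each other. The gap exceeded the larger SD only between ZT9 and ZT6 for Hspa1b, between ZT6 and ZT15 for Hsph1, between ZT6 and ZT0 for Chordc1, and for Dnajb1 between ZT6 and ZT9 and between ZT3 and ZT21.

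No difference in rhythm between the sexes was detected. None of the 10 genes passed that test by edgeR, with none at an unadjusted p under 0.05 and none by DESeq2 (13 of all 17193 genes, 0.0756%, passed). In mean level, 3 passed, against 41.1% of all genes (21% higher in males and 20.1% lower): Hspa8 (male minus female -0.05 ± 0.02 log2) and Hsph1 (-0.07 ± 0.02) were lower and Zfand2a (0.05 ± 0.02) was higher in males. Without replicate 4, or without replicate 6, the number that passed was 1.

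The shares of related chaperones that passed the rhythm test are read against the 41.4% of all genes. Of 32 other cytosolic chaperones and cochaperones, 22 were rhythmic, including Dnaja4 (1.24-fold, peak ZT21.1), the Hsp70 to Hsp90 adaptor Stip1 (1.21-fold, ZT21.3), Dnajb4 (1.17-fold, ZT17.9) and Fkbp4 (1.15-fold, ZT19.9), with a median log2 swing of 0.13 against 0.14 over all genes. Of 8 subunits of the cytosolic chaperonin CCT, 4 were rhythmic (Cct3, Cct5, Cct7 and Cct4), with a median swing of 0.07. Of 13 other mitochondrial chaperones and proteases, 6 were, with a median of 0.05, among them Clpb (ZT23.5) and Htra2 (ZT9.21). The shares of the CCT and mitochondrial lists were near that of all genes, and their median swings were smaller. In a list of 5 genes, made up of heat shock factors and the HSF1 inhibitor Hsbp1, 3 were rhythmic. These were Hsf1 (1.14-fold, ZT21.6), Hsf4 (1.23-fold, ZT11.7) and Hsbp1 (1.06-fold, ZT1.58). Of 15 chaperones of the endoplasmic reticulum, 14 were, with a median swing of 0.34, and Hspa5 reached a fold of 1.58 at ZT20.2. The cold-inducible RNA-binding genes Cirbp (1.61-fold, ZT9.43) and Rbm3 (1.49-fold, ZT12.3) peaked in other hours.

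Some cell type markers varied with time as well. Against 41.4% of all genes, rhythm passed for 4 of 7 excitatory neuron, 1 of 6 inhibitory neuron, 5 of 6 astrocyte, 5 of 6 oligodendrocyte, 7 of 7 microglia, 6 of 7 endothelial and mural, 0 of 7 striatal neuron, 2 of 5 choroid plexus and 0 of 7 blood markers. Their summed levels overlapped between times, for microglia at 168 to 201 CPM at ZT12 and 150 to 184 at ZT15. Their part in the rhythm of the heat shock genes was not tested.

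At ZT6 the first question was whether these genes differed between the 11:11 and the 12:12 light cycle. Averaged over set, sex and genotype, 6 of the 10 were higher on 11:11 and none lower, against 12.6% of the 18841 genes tested (7.49% higher and 5.15% lower). The median over the 10 was 0.09 on the log2 scale, against 0 over all genes. The log2 differences were 0.38 ± 0.12 (SE) for Hspa1b, 0.31 ± 0.10 for Hspa1a, 0.19 ± 0.04 for Dnajb1, 0.14 ± 0.04 for Chordc1, 0.11 ± 0.02 for Hspd1 and 0.07 ± 0.02 for Hsp90aa1. Hsph1 (0.07 ± 0.03, adjusted p = 0.0694), Hspa8 (0.01 ± 0.02), Hspe1 (-0.06 ± 0.04) and Zfand2a (-0.00 ± 0.02) did not pass. The call of Hsp90aa1 (adjusted p = 0.0406) was lost with RLE size factors (0.0632) and with DESeq2 (0.0594). The number that passed was 2 without replicate 1 and 3 without replicate 3.

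**Figure D2:**
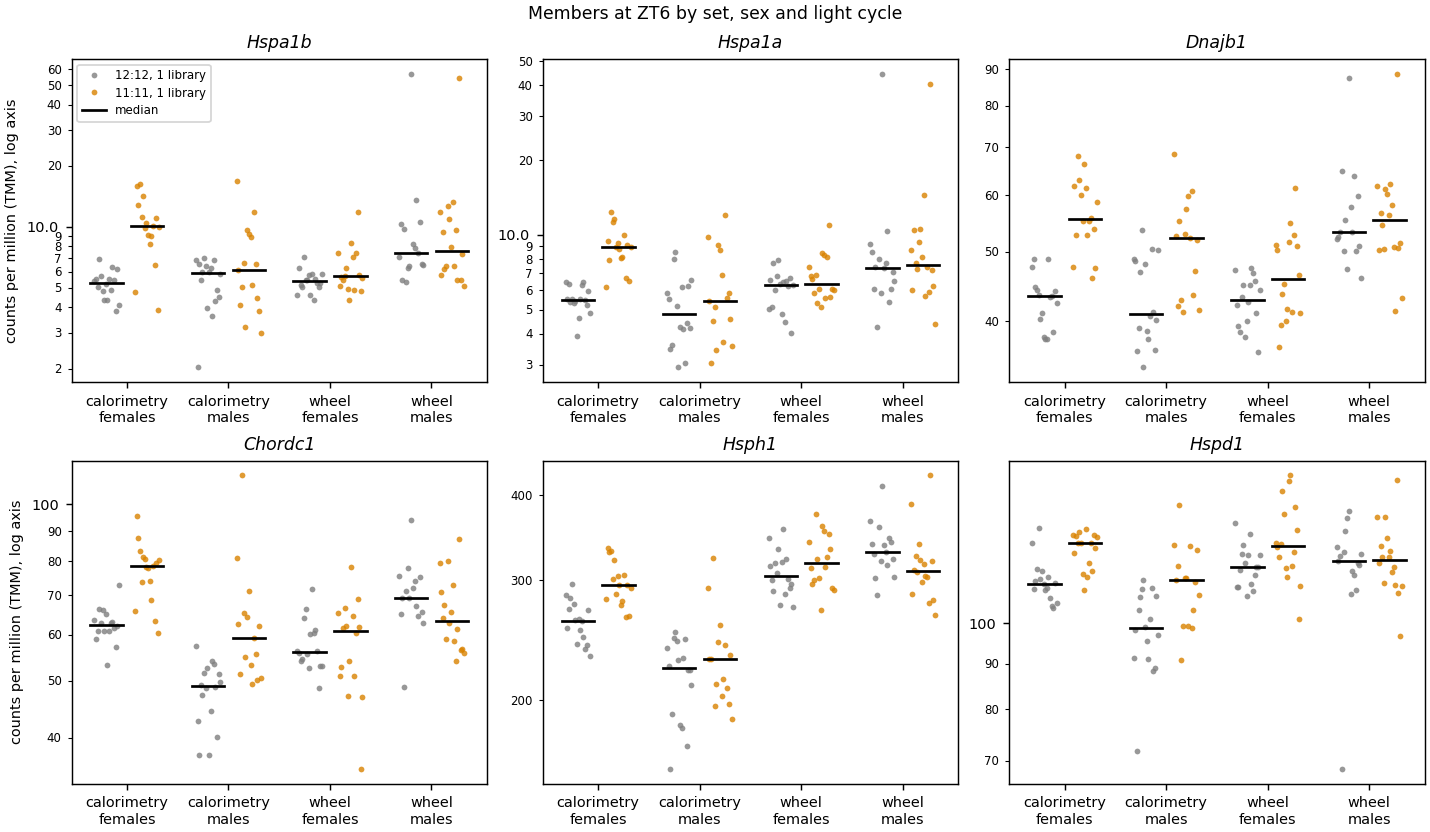
Level of 6 of the genes in each ZT6 library, in CPM on a log axis, by set and sex; grey points are 12:12 libraries, orange points 11:11 libraries, and bars are medians. In calorimetry females the medians of Hspa1b are 5.30 on 12:12 and 10.1 on 11:11, and in running wheel males the 2 libraries above 50 lie far from all the rest.

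Each set and sex was then examined by itself. In calorimetry females 5 of the 10 genes were higher on 11:11, against 12.3% of all genes (6.69% higher and 5.62% lower). Hspa1b stood at 3.84, 5.30 and 6.97 CPM (lowest, median and highest of 16 libraries) on 12:12 and at 3.87, 10.1 and 16.2 on 11:11. All but a few of the 11:11 libraries exceeded the highest of 12:12, a log2 difference of 0.94 ± 0.23 (adjusted p = 0.00259). Hspa1a stood at 3.91, 5.48 and 6.47 CPM on 12:12 and at 6.21, 8.94 and 12.3 on 11:11, so that the ranges met only at the edge, with a log2 difference of 0.69 ± 0.20 (adjusted p = 0.0114). Dnajb1 (0.40 ± 0.07), Chordc1 (0.30 ± 0.07) and Hsph1 (0.19 ± 0.05) were the others. Dnajb1 ranged from 37.7 to 48.9 CPM on 12:12 and from 45.96 to 68.0 on 11:11. The number that passed here was 1 without replicate 2 and 3 without replicate 4.

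In calorimetry males 3 genes were higher on 11:11, against 13.5% of all genes (7.18% higher and 6.33% lower): Chordc1 (0.36 ± 0.07), Dnajb1 (0.25 ± 0.07) and the mitochondrial Hspd1 (0.17 ± 0.05). Chordc1 stood at 37.3, 49.1 and 57.4 CPM on 12:12 (16 libraries) and at 49.5, 59.1 and 112.1 on 11:11 (15 libraries), so that the upper part of the 11:11 range was free of 12:12 libraries. The 112.1 was in a HET/TG library (replicate 4) with 33.5% ribosomal RNA. Hspa1b (0.35 ± 0.24, adjusted p = 0.35) and Hspa1a (0.26 ± 0.21, adjusted p = 0.446) did not pass. Hspa1a ranged from 3.04 to 12.0 CPM on 11:11 and from 2.93 to 8.53 on 12:12.

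None of the 10 passed in running wheel females by edgeR, where 52 of all genes (0.276%) did (0.26% higher and 0.0159% lower). Of the 10, 2 had an unadjusted p under 0.05, a count with no share of all genes at that level beside it, and DESeq2 picked out none. None passed in running wheel males either, where 0% of all genes did, none of the 10 was under 0.05 unadjusted and DESeq2 picked out none. The interval of Chordc1 there was -0.24 to 0.05 and in running wheel females -0.14 to 0.14, and that of Dnajb1 was -0.15 to 0.13 and -0.01 to 0.27. For Hspa1b the intervals were wide, -0.42 to 0.46 and -0.27 to 0.67.

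**Figure D3:**
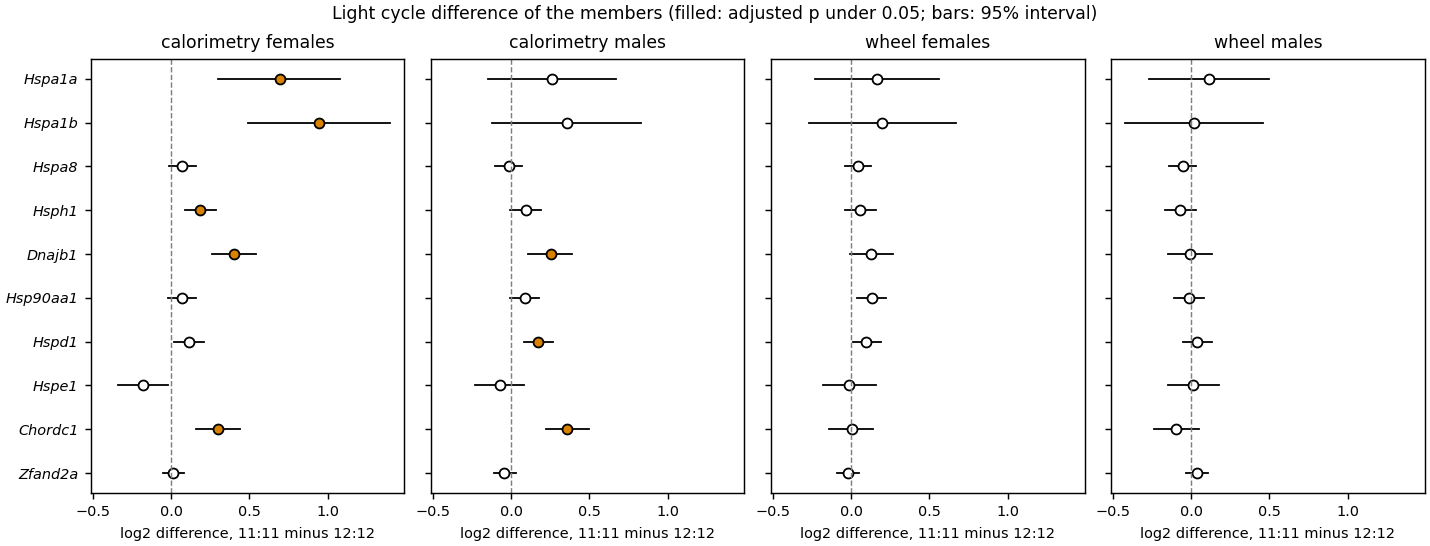
Fitted log2 difference between 11:11 and 12:12 (horizontal axis) for each of the 10 genes in each combination of set and sex; points are estimates, filled where the adjusted p is under 0.05, and bars are 95% intervals. Filled points occur in calorimetry females (5) and calorimetry males (3) and in neither running wheel group.

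The difference between the sets was itself tested. The light cycle effect was larger in calorimetry than in running wheel mice for Chordc1 (by 0.37 ± 0.07 log2, adjusted p = 0.000383) and Dnajb1 (0.27 ± 0.07, adjusted p = 0.0133), 2 of the 10 against 5.32% of all genes (2.74% higher and 2.58% lower). Hspa1b (0.54 ± 0.23, adjusted p = 0.174), Hsph1 (0.15 ± 0.05, 0.0706) and Hspa1a (0.34 ± 0.20, 0.376) had positive estimates that did not pass. Fitted on calorimetry libraries alone, the light cycle gave 6 of the 10 and 0.33 for Dnajb1 and 0.33 for Chordc1. On running wheel libraries alone it gave none, with estimates of 0.056 and -0.051. The shares of all genes that passed in these fits are not given here. In the main model 12.3% and 13.5% of all genes passed in calorimetry females and males. In running wheel females and males 0.276% and 0% did. The call of Dnajb1 for the difference between sets was lost without replicate 2, 3 or 4 (adjusted p = 0.0551, 0.0712 and 0.242), while that of Chordc1 held without each replicate number. With the length slope as a covariate the call of Dnajb1 was also lost (0.235, adjusted p = 0.0684) and Chordc1 passed (0.332, adjusted p = 0.00555). Without replicate 1 the number that passed was 5.

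Other measures of the libraries moved with the light cycle too. In calorimetry females the slope of level on gene length ranged from 0.159 to 0.955 on 11:11 and from -0.334 to 0.304 on 12:12. With this slope as a covariate, the light cycle left 2 of the 10 genes overall (Dnajb1, 0.175, and Hspd1, 0.11) and 1 in calorimetry females (Dnajb1, 0.359), with Hspa1b there at 0.777 (adjusted p = 0.0563) and Chordc1 at 0.239 (0.0527). In calorimetry males it left the same 3 (Chordc1 at 0.323, Dnajb1 at 0.226 and Hspd1 at 0.179). Blood markers were lower on 11:11 for 3 of 7 and higher for none, with summed levels of 44.3 to 93.6 CPM against 68.6 to 169 in calorimetry females and none of the 7 at 0; their part in the result was not tested. Of the other marker lists, 2 of 7 excitatory neuron and 1 of 6 oligodendrocyte markers were higher, 1 of 7 endothelial and mural markers was higher and 1 lower, and no inhibitory neuron, astrocyte, microglia, striatal neuron or choroid plexus marker passed. Within calorimetry females, 3 of 7 microglia and 3 of 6 astrocyte markers were lower on 11:11.

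Of the wider chaperone lists, 13 of 32 cytosolic chaperones and cochaperones were higher on 11:11 and none lower, against 7.49% of all genes higher, among them Dnajb4 (0.14 ± 0.03), Hsp90ab1 (0.08 ± 0.02) and the small heat shock protein Cryab (0.15 ± 0.04). None of the 8 CCT subunits passed by edgeR (2 were under 0.05 unadjusted), and the mitochondrial list had 3 higher (Hspa9, Lonp1 and Timm44) and 1 lower (Hscb, -0.25 ± 0.06) of 13. In the list of heat shock factors and Hsbp1, only Hsbp1 passed, lower by 0.09 ± 0.02, and Hsf1 stood at 0.04 ± 0.03 (adjusted p = 0.465). Chaperones of the endoplasmic reticulum had 13 of 15 higher, and neither cold-inducible gene passed. These values average over the sets. By the edgeR test of the difference between sets, the light cycle effect was lower in calorimetry mice for Cirbp (-0.47 ± 0.08, adjusted p = 2.75e-05) and Rbm3 (-0.29 ± 0.08, 0.0135). That of Hsbp1 was also lower there (-0.18 ± 0.04, 0.00184), and that of Hsf1 was higher (0.24 ± 0.07, 0.0125). These lists were drawn up with results of the series known, and their counts are descriptions.

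The second question was how the calorimetry and the running wheel set differed. Of the 10 genes, 7 passed, against 62.2% of all genes, so their number was near the background (29.3% of genes were higher and 32.9% lower in calorimetry). Hsph1 (-0.36 ± 0.03 log2), Hspa1a (-0.31 ± 0.10), Hspa8 (-0.30 ± 0.02), Hsp90aa1 (-0.16 ± 0.02) and Hspd1 (-0.11 ± 0.02) were lower in calorimetry mice. Hspe1 (1.08 ± 0.04) and Zfand2a (0.18 ± 0.02) were higher. Hspa1b (-0.23 ± 0.12, adjusted p = 0.0794), Dnajb1 (-0.06 ± 0.04) and Chordc1 (-0.03 ± 0.04) did not pass.

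**Figure D4:**
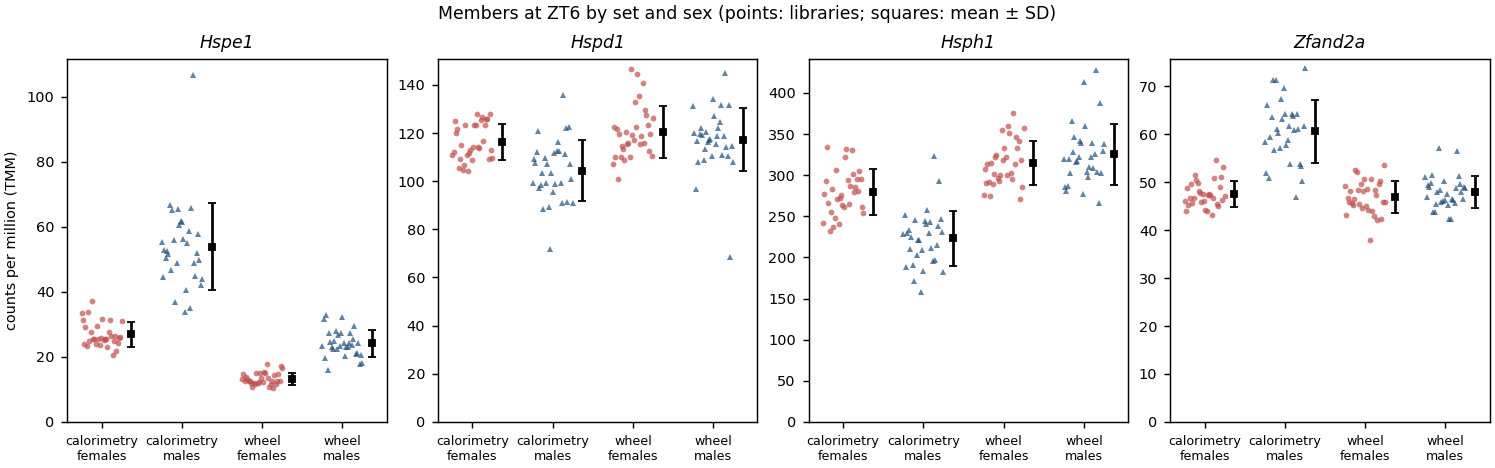
Level of 4 of the genes at ZT6 in CPM (axes from 0) by set and sex; points are libraries, red for females and blue for males, and squares are means ± SD. The means of Hspe1 run from 13.3 in running wheel females to 53.8 in calorimetry males, and those of its partner Hspd1 from 104.4 (calorimetry males) up to 120.3 (running wheel females).

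Hspe1 and Hspd1, whose products work as a complex, parted here. Hspe1 stood at 10.4, 12.7 and 17.9 CPM (lowest, median and highest) in 32 running wheel females, at 16.01, 23.5 and 32.96 in 31 running wheel males, at 20.5, 25.7 and 37.2 in 32 calorimetry females and at 33.8, 52.6 and 106.7 in 31 calorimetry males. The 106.7 was in the HET/TG library on 11:11 (replicate 4) with 33.5% ribosomal RNA. Running wheel females and calorimetry females did not overlap, nor did running wheel males and calorimetry males. Hspd1 stood at 101.0, 119.1 and 146.8 CPM, at 68.5, 117.6 and 145.0, at 104.1, 114.4 and 127.9 and at 71.7, 103.5 and 135.8 in the same order, with wide overlap. Hspe1 has the shortest exons of the 10 genes (1.47 kb), and its means rank opposite to the mean length slopes of these groups, given above, except between calorimetry females and running wheel males. With the slope as a covariate, Hspe1 differed between the sets by 0.764 (adjusted p = 3.47e-09), Hspa8 by -0.286 and Hsph1 by -0.198, and these 3 were all that passed; Hspa1a then had the opposite sign (0.271, adjusted p = 0.504). Striatal neuron markers were lower in calorimetry for 7 of 7, choroid plexus markers for 4 of 5 and blood markers higher for 5 of 7. Their part in these differences was not tested, and set, light at collection, housing and preparation cannot be told apart.

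In the related lists, the set comparison went both ways, and for the cytosolic and mitochondrial lists the share that passed was near the 62.2% of all genes. In the cytosolic list, 9 of 32 genes were higher in calorimetry (Bag1 by 0.37, Cacybp by 0.29 and Ptges3 by 0.19) and 10 lower (Dnajb5, -0.62). Of the CCT subunits 5 were higher and 1 lower, and of the mitochondrial list 6 higher (Clpp, Grpel1, Hscb and Yme1l1 first) and 2 lower. In the list of heat shock factors and Hsbp1, Hsbp1 (0.31) and Hsf4 (0.09) were higher and Hsf1 lower (-0.16). Of the endoplasmic reticulum list 2 were higher and 10 lower, and Rbm3 (0.79) and Cirbp (0.41) were both higher.

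Between the sexes at ZT6, 8 of the 10 genes passed, against 58.1% of all genes (27.6% higher in males and 30.5% lower). Hspe1 (male minus female 0.91 ± 0.04 log2), Hspa1b (0.30 ± 0.12), Zfand2a (0.19 ± 0.02) and Dnajb1 (0.14 ± 0.04) were higher in males, and Hsph1 (-0.14 ± 0.03), Hspa8 (-0.12 ± 0.02), Hsp90aa1 (-0.11 ± 0.02) and Hspd1 (-0.10 ± 0.02) lower. With the length slope as a covariate only Hspe1 passed (0.582, adjusted p = 4.97e-05). The estimates of the 2 sets differed for several, a difference that was not tested: Hspa1b was at 0.85 in running wheel mice alone and at -0.252 in calorimetry mice alone, Dnajb1 at 0.335 and -0.06, and Zfand2a at 0.031 and 0.342. The running wheel value of Hspa1b includes 2 males far above the rest, described next: Hspa1b averaged 8.1 ± 2.55 CPM (SD) in the other 29 running wheel males, 11.2 ± 12.1 in all 31 and 5.86 ± 1.44 in 32 running wheel females. In the atlas, taken from other mice, the sex difference of Hspe1 was 0.05 ± 0.02 (adjusted p = 0.0583) and that of Hspa1b 0.18 ± 0.09 (0.127).

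In running wheel males 2 libraries stood far above the rest in the inducible genes, 1 on 12:12 with HET/WT (replicate 4) and 1 on 11:11 with WT/WT (replicate 1). Hspa1a was at 44.5 and 40.4 CPM in these and at 4.25, 7.39 and 14.5 (lowest, median and highest) in the other 29 running wheel males. Hspa1b was at 56.9 and 54.2 against 5.09, 7.32 and 13.6. Both libraries lay above every other ZT6 library for Hspa1a, Hspa1b, Dnajb1 (87.4 and 88.7, against at most 68.4) and Hsph1 (413.1 and 427.7, against at most 387.9). Chordc1 was at 94.0 and 87.5 against at most 79.9 in the other running wheel males, Hsp90aa1 at 955.1 and 1022 against at most 986.7, Hspd1 at 134.0 and 145.0 against at most 131.7, and Hspa8 at 1551 and 1773 against at most 1688. Hspe1 (32.3 and 29.5, against at most 32.96) and Zfand2a (46.3 and 56.4, against at most 57.1) lay within the others' range.

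**Figure D5:**
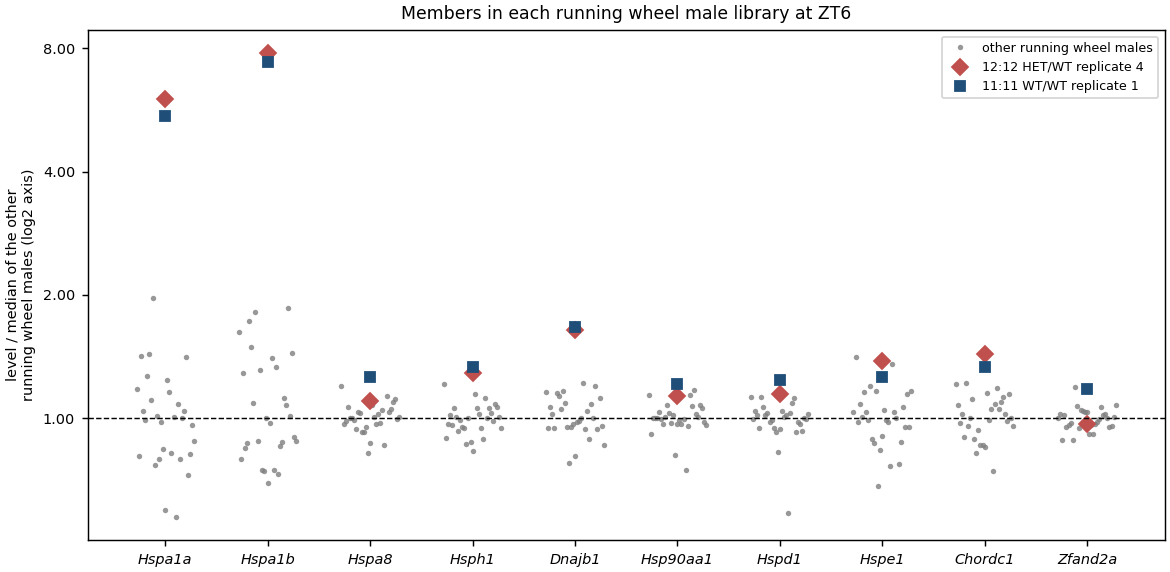
Level of each gene in each running wheel male library divided by the median of the other 29 running wheel males (vertical log2 axis); the diamond and the square are the 2 libraries that stand apart and grey points are the others. For Hspa1b the 2 libraries are 7.77 and 7.41 times the median, for Dnajb1 1.64 and 1.67 times, and for Zfand2a 0.967 and 1.18 times.

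These libraries lay within the range of the other running wheel males in depth (17.2 and 21.5 M reads), in ribosomal RNA (8.3% and 9.6%) and in length slope (0.335 and 0.207, within the group's -0.748 to 0.584). They came from different light cycles and genotypes. Without them the light cycle gave 5 of the 10 genes instead of 6 (Hsp90aa1 was lost), with smaller adjusted p for Hspa1b (0.000384) and Hspa1a (0.000513), and the difference between sets gave 4 instead of 2. The set difference of Hspa1a fell short of the threshold (-0.145, adjusted p = 0.0531), and so did the sex difference of Hspa1b (0.087, adjusted p = 0.359).

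The third question was whether these genes differed with Snord116 or Ctg. The 3 comparisons with WT/WT share the same WT/WT libraries. The 32 HET/WT libraries include the library labelled HET/WT whose Snhg14 and Ndn lay in the WT/WT range. Without it the number of the 10 that passed was the same in each of the ZT6 comparisons (0 in HET/WT and 1 in HET/TG), and all 32 ZT6 results for single genes kept their direction and side of the threshold. None of the 10 genes passed in HET/WT by edgeR, against 0.0425% of all genes (0.0106% higher and 0.0318% lower). Of the 10, 3 were under 0.05 unadjusted, a count with no share of all genes at that level beside it, and none passed by DESeq2. None passed in WT/TG by edgeR, unadjusted or by DESeq2, against 0.0159% of all genes (0.00531% higher and 0.0106% lower). In HET/TG, 1 of the 10 was lower, Zfand2a, against 0.0478% of all genes (0.0106% higher and 0.0372% lower). The intervals limit what could have been missed: in HET/WT that of Hspa8 was -0.03 to 0.10 and that of Dnajb1 -0.05 to 0.14, while those of Hspa1a (-0.09 to 0.46) and Hspa1b (-0.12 to 0.53) were wide.

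Zfand2a stood at 45.1, 49.5 and 71.3 CPM (lowest, median and highest) in 32 WT/WT libraries, at 42.3, 46.7 and 64.3 in 32 HET/WT, at 37.9, 50.3 and 73.8 in 30 WT/TG and at 42.2, 46.5 and 71.4 in 32 HET/TG libraries. The ranges overlapped almost wholly, and the medians of both Snord116+/- groups lay below those of both Snord116+/+ groups. The log2 difference from WT/WT was -0.12 ± 0.02 in HET/TG (adjusted p = 0.0175), -0.09 ± 0.02 in HET/WT (0.252) and -0.00 ± 0.03 in WT/TG (1). HET/TG against HET/WT gave -0.02 ± 0.02 (0.884) for Zfand2a, and none of the 10 passed there by edgeR, unadjusted or by DESeq2, against 0.0106% of all genes (0.00531% in each direction). Within running wheel mice the estimate for HET/TG was -0.101 (adjusted p = 1) and within calorimetry mice -0.13 (0.48). The call was lost without any of the 4 replicate numbers (adjusted p = 0.706, 0.106, 0.0731 and 0.29 in turn), without the 2 running wheel males above (0.0557) and without a filter on low counts (0.173).

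The difference between HET/WT and WT/WT did not vary detectably with set, light cycle or sex for any of the 10 genes by edgeR, and no gene in the whole table passed in these 3 interactions (0% each). Of the 10, only Hspa8 by set (0.13 ± 0.06) was under 0.05 unadjusted, and none passed by DESeq2. For Hspa1b the difference by light cycle was -0.45 with an interval of -1.10 to 0.20, which is wider than most of the differences above.

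Within groups of like animals the 10 genes varied together to a moderate degree. After removing group means, the 45 pairs had a median Pearson r of 0.34 over 92 atlas libraries (from -0.282 to 0.815) and of 0.40 over 126 ZT6 libraries (-0.213 to 0.812), or 0.306 at ZT6 without the 2 running wheel males. These libraries share preparation and depth, and the values are descriptions. Against the mean of the other 9 over all libraries, with differences between groups kept, Hspa1b (0.807), Chordc1 (0.796), Hspa8 (0.793) and Hsph1 (0.784) were closest in the atlas. Zfand2a stood apart (-0.0817 in the atlas and -0.456 at ZT6), as did Hspe1 at ZT6 (-0.308, against 0.397 in the atlas). With group means removed, the pairs of Hspe1 at ZT6 ran from -0.107 (with Hspa8) to 0.40 (with Chordc1). Those of Zfand2a ran from -0.213 (with Hsp90aa1) to 0.0961 (with Hspa1a).

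With differences between groups kept, the genes outside the list most like the mean of the 10 were mostly chaperones of the endoplasmic reticulum. Over 92 atlas libraries these were Hspa5 (r = 0.877), Pdia3 (0.867), Stip1 (0.843), Dnajc3 (0.839) and Dnajb11 (0.836). Over 126 ZT6 libraries they were Hspa5 (0.856), Calr (0.809), Dnaja1 (0.804), Pdia4 (0.803) and Pdia3 (0.799). Hspa5 was thus first in both tables. The light cycle difference of Hspa5 was 0.28 ± 0.05, and larger in calorimetry mice by 0.46 ± 0.10 (adjusted p = 0.0016).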

How the data were processed

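Ribosome-depleted, directional RNA libraries from left prefrontal cortex had been made and sequenced by a service provider, per the labels' protocols. Read counts, not normalized, were deposited by Ensembl gene in a table for the atlas and another for ZT6. Trim Galore, STAR, SAMtools, limma and the mm10 build are named, per the submitters' processing notes, and neither the counting step and its strand setting nor any version is given in the sources used here. Identifiers were matched to GENCODE mouse release 21 (55227 of 55487 in each table).

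Everything from the counts on was computed here. Genes with low counts were removed with filterByExpr, leaving 17193 genes in the atlas and 18841 at ZT6, and edgeR 4.0.16 (R 4.3.3) fitted robust quasi-likelihood models with TMM scaling. The ZT6 model had a mean for each of 32 groups, with contrasts averaged over the others. The atlas model had sex and a 24 h cosine and sine. Adjusted p-values are Benjamini-Hochberg over all genes tested, with a threshold of 0.05, and intervals are 95%. Counts under 0.05 unadjusted are given without the share of all genes at that level and are descriptions. CPM values use TMM library sizes. Differences are calorimetry minus running wheel, 11:11 minus 12:12, male minus female, and the first genotype minus WT/WT. The length slope is the slope of a library's log2 level on log2 gene length, scaled to unit SD over the libraries of its table. Replicates are labelled biological, none of 406 pairs were identical, and p-values measure the spread between these animals.

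On average, same-numbered samples hardly deviated together (mean r of 0.005 in the atlas and 0.0071 at ZT6), so no replicate block entered the main model. Some pairs did, with an r over 0.1 in 18.6% of same-numbered pairs in the atlas and 7.75% at ZT6. The alternatives were DESeq2 1.42.0, RLE size factors, no filter on low counts, a replicate block, each replicate number left out, the length slope as a covariate, each set alone, and leaving out the library that went against its label. Leaving out 2 libraries richest in ribosomal RNA or the 2 running wheel males, and the steps between times and the 12 h term, were added after values had been seen. The fits were tested on simulated counts. The 10 genes and the gene lists were chosen with earlier results of these data known. All 10 genes were considered in every comparison. Of each other list, genes were named from the 4 with the smallest p in the rhythm, light cycle and set comparisons, and the 5 genes most like the mean of the 10 were named for each table.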

Additional observations from a re-analysis of the deposited data

Results flagged for a closer look

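The following single libraries lay far from the others of their group of 4 to 6, by Dixon's test at the 95% level, in 30 of 460 combinations of gene and group (6.52%). Chance alone would set apart about 5% of groups. Values are in CPM, with the range of the others after them.

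The largest gaps were in the inducible Hsp70 genes of running wheel males. In the WT/WT library on 11:11 (replicate 1), Hspa1a was at 40.39 (4.403 to 7.218), Hspa1b at 54.2 (5.094 to 7.317), Chordc1 at 87.47 (55.78 to 56.6) and Zfand2a at 56.41 (49.46 to 49.79). In the HET/WT library on 12:12 (replicate 4), Hspa1a was at 44.51 (4.248 to 7.987) and Hspa1b at 56.86 (5.342 to 6.395). Another running wheel male, HET/TG on 12:12 (replicate 4), had Dnajb1 at 64.8 (52.13 to 53.34), Hsp90aa1 at 630.9 (817 to 837.9) and Hspd1 at 68.52 (117.6 to 122), and replicate 3 of HET/TG on 11:11 had Zfand2a at 42.3 (47.88 to 48.94).

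In running wheel females, the WT/WT library on 11:11 (replicate 1) had Hspa1a at 10.92 (5.64 to 6.036) and Hspa1b at 11.84 (4.81 to 5.763). WT/TG on 11:11 had Hspa1a at 5.569 in replicate 3 (8.157 to 8.466) and Zfand2a at 37.87 in replicate 1 (47.37 to 48.45), the library richest in ribosomal RNA. WT/TG on 12:12 (replicate 2) had Chordc1 at 71.79 (60.01 to 61.18).

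In calorimetry mice, Hspe1 was at 106.7 in a HET/TG male on 11:11 (replicate 4, 50.26 to 57.71), the library with the second highest share of ribosomal RNA, and at 31.07 in a WT/TG female on 12:12 (replicate 2, 25.47 to 26.05). Hspa1b was at 16.84 in a HET/TG male on 11:11 (replicate 1, 4.096 to 6.149), Hspa1a at 3.908 in a HET/WT female on 12:12 (replicate 4, 5.349 to 5.536) and Hsph1 at 281.1 in a HET/TG female on 11:11 (replicate 1, 330.1 to 334.2).

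In the atlas, replicate 5 of females at ZT9 had Hspa1b at 7.032 (3.508 to 4.666) and Hsph1 at 289.8 (231.1 to 251.7), and replicate 5 of females at ZT18 had Hspa8 at 1092 (1153 to 1177) and Zfand2a at 48.81 (43.05 to 44.67). Hsph1 was at 223.8 in a ZT12 female (248 to 255.3). Hspe1 was at 29.89 in a ZT21 female (24.43 to 25.74) and at 21.84 in a ZT6 male (24.95 to 26.73). Chordc1 was at 78.23 in a ZT0 female (54.84 to 63.59) and at 86.46 in a ZT3 male (65.13 to 69.95). Zfand2a was at 53.29 in a ZT15 male (49.41 to 49.87).

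Between the sets, the light cycle difference was larger in calorimetry than in running wheel mice for Chordc1, by 0.37 on the log2 scale, and for Dnajb1, by 0.27, each by the test of the difference itself in edgeR.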

How the results depend on the processing

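Of 45 results for single genes, 557 repeats under other settings gave the same direction and side of the threshold 469 times, the same direction without passing 82 times and the opposite sign 6 times. With the length slope as a covariate, the number of the 10 genes that passed was 3 for set, 2 for the light cycle, 1 for its difference between sets, 1 in calorimetry females and 1 for sex at ZT6. Hspa1a by set was then 0.271 and Hsph1 by sex 0.034. Over all genes the same covariate took the calls from 11713 to 5108 for set, from 2383 to 1068 for the light cycle and from 10948 to 2132 for sex at ZT6. Running wheel libraries alone gave 0 for the light cycle (Chordc1 at -0.051) and 0.047 for Hsph1 by sex, and calorimetry libraries alone gave -0.252 for Hspa1b and -0.06 for Dnajb1 by sex. HET/TG gave 0 in each set alone, without a filter on low counts and without the 2 running wheel males. Without the filter, the difference between sets gave 5, calorimetry males 5 and HET/WT 1, and without the 2 running wheel males the difference between sets gave 4. The cause of these changes was not tested.

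Leaving out each replicate number in turn gave 2 to 5 for the light cycle, 1 to 5 for its difference between sets, 1 to 5 among females and 2 to 3 among males of the calorimetry set, 0 for HET/TG, 1 to 4 for sex in the atlas, 8 to 9 for rhythm and 9 to 13 for the steps between times. With the replicate block, rhythm gave 9 of the 10 (Hsp90aa1 at an adjusted p of 0.0556) and every other count was the same. Of the libraries, 26 of 92 and 41 of 126 correlated best with their own number, counts that were not set against chance. DESeq2 was not run on the steps or the 12 h term. The counts of Hspa1a and Hspa1b, the lowest of the 10, limit how small a difference could be seen in them.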
